A study of Homo sapiens with 4 samples.

Results

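The kinesin motor genes were examined in MDA-MB-231, a human cell line derived from triple-negative breast cancer. They were taken as the protein-coding genes whose symbol is KIF with a number, or KIFC with a number, and 42 of the 20263 genes in the count table met this rule. Of these, 11 work mainly in cell division and are called the mitotic kinesins here (KIF4A, KIF11, KIF14, KIF15, KIF18A, KIF20A, KIF20B, KIF22, KIF23, KIF2C and KIFC1), and they were compared with the other 31. The study compared cells given DMSO, the solvent control, with cells given Neoribocic for 24 h, with 2 RNA sequencing libraries in each group. The labels give no dose, and the treatment protocol uses the name Rib_CA, which was read as the same compound. All libraries came from the same line grown in 10% fetal bovine serum. Whether the libraries of a group stem from separate cultures is not stated, so p-values reflect only the spread between these libraries, which may be technical.

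Kinesins are motor proteins that burn ATP to move along microtubules or to take microtubules apart. In interphase many of them carry vesicles, mitochondria and signalling proteins. In mitosis a specialised set separates the spindle poles, aligns the chromosomes and builds the midzone where the cell divides. Transcripts of the mitotic set rise and fall with the cell cycle, and many of their promoters are known to carry the CHR element (cell cycle genes homology region), a site of the DREAM repressor complex and of the MuvB activators, often close to a CCAAT box. These are general facts about the family and not results of these samples.

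Library totals ran from 34774542 to 43014212 counts, and mitochondrial genes held 5.76% to 8.68% of the counts except in DMSO replicate 2, where they held 21.7%. Levels are given as CPM, counts scaled to a common library size with TMM factors, and comparisons between genes as CPM per kilobase of transcript. The line's markers VIM, CD44, AXL, ZEB1, FN1 and CAV1 summed to 6898 and 8150 CPM with DMSO and 4876 and 5095 CPM with Neoribocic, and 5 of the 6 fell. Over all genes tested, 21.3% were called lower. With counts corrected for transcript length and GC content, 4 of the 6 were lower, against 2686 of all 13862 genes in that fit. In log2 fold change CD44 moved from -0.58 (edgeR adjusted p = 0.0436) to 0.0104 (adjusted p = 0.968). The summed level of the 9 luminal and epithelial markers was 802 and 987 CPM with DMSO against 1191 and 899 CPM with Neoribocic. Of the 7 tested, 2 fell (PGR and KRT18), beside the 21.3% of all genes. With the correction 1 of the 7 was lower. PGR, with 12 to 58 counts per library, moved from a log2 fold change of -1.61 to -0.58 (edgeR adjusted p = 0.372). The other 2 on that list, CDH1 and ESR1, had too few counts to be tested and did not exceed 0.649 CPM in any library. Markers of blood, endothelial and neuronal cells summed to 1.94 to 3.33 CPM, with CDH5 at 0 in every library. The part of these markers in the kinesin results was not tested. In bulk RNA, fewer dividing cells and less kinesin RNA per cell cannot be told apart.

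Of the 42 kinesin genes, 33 had enough counts to be tested, including all 11 mitotic kinesins and 22 of the other 31. With Neoribocic, 16 kinesins fell and 2 rose, while 15 missed the threshold of 0.05 for the adjusted p (edgeR quasi-likelihood test, Benjamini-Hochberg method over 13879 genes). Over all genes tested, 21.3% were called lower and 19.1% called higher. With upper-quartile scaling the kinesin split was 15 lower and 5 higher, and 2532 of all 13879 genes were called lower and 3329 higher. That scaling moved the median log2 fold change of all genes from 0.01 to 0.13. Without Neoribocic replicate 1, which left 1 library in that group, fewer kinesins were called, and so were fewer genes in the whole table. In 19 of the 33 tested kinesins both Neoribocic libraries lay below both DMSO libraries, and in 7 both lay above. Among all genes tested these shares were 37.3% and 37.8%.

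The median log2 fold change was lower among the mitotic kinesins than among the others, but the falls of the 2 sets overlapped. KIF5B (-1.74), KIF21A (-1.64) and KIF24 (-1.52), outside the mitotic set, fell more than KIF23 (-1.51) and KIF18A (-1.50). Of the 11, 8 fell, with a median log2 fold change of -1.80 over the 11. In the main edgeR fit 0 rose, also at an unadjusted p under 0.05, and 0 rose with DESeq2 or limma-voom. With upper-quartile scaling KIF22 was called higher (edgeR adjusted p = 0.0457). Of the 22 other kinesins tested, 8 fell and 2 rose, with a median of -0.58, and the median of all genes tested was 0.01. The shares of all genes tested were 21.3% lower and 19.1% higher. Each median is a description, because genes of a family are not replicates of the condition. The summed level of the 11 mitotic kinesins was 1335 and 1163 CPM in the DMSO libraries and 733 and 670 CPM in the Neoribocic libraries. The other kinesins summed to 1807 and 1673 CPM with DMSO and 1233 and 1219 CPM with Neoribocic. Both sums were therefore lower in each Neoribocic library than in either DMSO library. In the second sum KIF5B alone had a mean of 349 CPM with DMSO and 104 CPM with Neoribocic. The median level of the other kinesins tested was 36.6 and 35.5 CPM with DMSO and 31.9 and 31.7 CPM with Neoribocic. For the mitotic kinesins it was 125 and 105 CPM against 32.4 and 40.9 CPM.

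**Figure D1:**
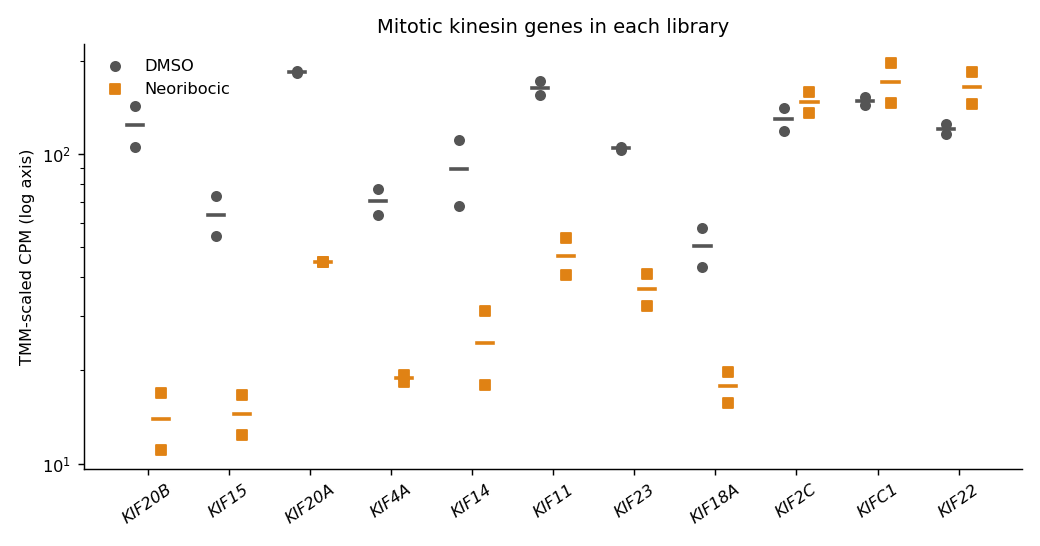
Level of each of the 11 mitotic kinesins in each library, as TMM-scaled CPM on a log axis, with 1 point per library and a line at each group's mean. For 8 genes the 2 Neoribocic points lie well below the 2 DMSO points, while those of KIF2C, KIFC1 and KIF22 lie between 136 and 196 CPM, close to the DMSO points.

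The motors of the spindle midzone and of cytokinesis all fell, 4 of 4, beside the 21.3% of all genes tested that were called lower. KIF20B (ENSG00000138182), a kinesin-6 motor needed for abscission, stood at 143 and 105 CPM in the DMSO libraries and at 11.1 and 16.9 CPM in the Neoribocic libraries. The groups lay far apart, and the log2 fold change was -3.15 ± 0.29 (SE; edgeR adjusted p = 5.74e-04), the largest fall of any kinesin matched by the symbol rule. KIF20A (ENSG00000112984), which brings the chromosomal passenger complex to the midzone, stood at 186 and 183 CPM with DMSO and 44.9 and 44.7 CPM with Neoribocic. Replicates of KIF20A nearly coincided in both groups, and it fell by 2.04 ± 0.19 on the log2 scale (edgeR adjusted p = 5.74e-04). KIF14 (ENSG00000118193), a kinesin-3 motor that acts with citron kinase in cytokinesis, read 111 and 68.0 CPM with DMSO and 18 and 31.0 CPM with Neoribocic. Its replicates spread more than those of the other mitotic kinesins, but the groups did not overlap, with a log2 fold change of -1.87 ± 0.35 (edgeR adjusted p = 0.00609). KIF23 (ENSG00000137807), the motor subunit of centralspindlin, read 106 and 103 CPM with DMSO and 32.4 and 40.9 CPM with Neoribocic, and its log2 fold change was -1.51 ± 0.21 (edgeR adjusted p = 0.00158).

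The motors that assemble the bipolar spindle were split. KIF11 (ENSG00000138160), the kinesin-5 motor Eg5 that pushes the poles apart, stood at 172 and 155 CPM with DMSO and 40.6 and 53.3 CPM with Neoribocic. KIF15 (ENSG00000163808), a kinesin-12 motor that can stand in for Eg5, stood at 72.9 and 54.3 CPM with DMSO and 12.4 and 16.6 CPM with Neoribocic. Neither gene's groups overlapped, and the log2 fold changes were -1.80 ± 0.22 for KIF11 (edgeR adjusted p = 9.87e-04) and -2.13 ± 0.26 for KIF15 (edgeR adjusted p = 0.00103). KIFC1 (ENSG00000237649), also called HSET, is a minus-end motor of the kinesin-14 family that draws the poles together, against Eg5. It read 144 and 153 CPM with DMSO and 196 and 146 CPM with Neoribocic. The groups overlapped, and the log2 fold change of 0.20 ± 0.21 did not pass (edgeR adjusted p = 0.456). Of its exon bases, 12.7% are overlapped on the opposite strand by the pseudogene RPL12P1, and whether counting used the strand is not stated.

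Of the motors on chromosome arms, KIF4A fell and KIF22 did not pass. KIF4A (ENSG00000090889), a kinesin-4 motor that works with condensin and with the midzone protein PRC1, read 77.0 and 63.7 CPM with DMSO and 18.4 and 19.4 CPM with Neoribocic, a log2 fold change of -1.90 ± 0.22 (edgeR adjusted p = 8.84e-04). KIF4B is a near-identical copy of KIF4A that had at most 2 counts in a library, and reads of the pair can be split in counting. KIF22 (ENSG00000079616), the kinesin-10 motor Kid, was at 125 and 116 CPM with DMSO and 184 and 145 CPM with Neoribocic. Both of its Neoribocic libraries lay above both DMSO libraries, but the log2 fold change of 0.45 ± 0.20 did not pass (edgeR adjusted p = 0.103). It was 0.57 with upper-quartile scaling (adjusted p = 0.0457, within a range of 0.0457 to 0.802 over the alternative fits), and 13% of its exon bases are overlapped by an antisense gene.

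The motors that act on microtubule ends also parted. KIF18A (ENSG00000121621), a kinesin-8 motor that dampens chromosome movement at the metaphase plate, read 57.6 and 43.3 CPM with DMSO and 15.7 and 19.8 CPM with Neoribocic. It fell by 1.5 ± 0.25 on the log2 scale (edgeR adjusted p = 0.00286). KIF2C (ENSG00000142945), the kinesin-13 depolymerase MCAK that corrects faulty kinetochore attachments, read 141 and 119 CPM with DMSO and 159 and 136 CPM with Neoribocic. The groups overlapped, and its log2 fold change was 0.19 ± 0.20 (edgeR adjusted p = 0.475). Per kilobase of transcript, KIF20A was the highest mitotic kinesin with DMSO, at 57.5 ± 0.630 CPM per kilobase (SD, n = 2), close to KIF22 at 57.0 ± 3.09 and KIFC1 at 54.9 ± 2.21. With Neoribocic the mean of KIF20A was 14 ± 0.05 CPM per kilobase (SD, n = 2), against 77.8 ± 12.9 for KIF22, 63.3 ± 13.1 for KIFC1 and 51.2 ± 5.68 for KIF2C. The 3 mitotic kinesins that did not pass were thus the highest 3 on this scale with Neoribocic, and the ranges of mean ± SD of neighbours in that order overlapped.

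The 2 replicates of a group did not deviate alike across the mitotic kinesins. In the DMSO group, replicate 2 was below replicate 1 in 10 of the 11, with a median log2 difference of -0.24. In the Neoribocic group, replicate 2 was above replicate 1 in 7 of the 11, with a median of 0.33, and all 3 mitotic kinesins that did not pass were lower in replicate 2. Among the 22 other kinesins tested the corresponding medians were -0.07 and 0.00. The log2 fold changes of the 8 falling genes, -3.15 to -1.5, were larger in size than these replicate differences. The test that called these 8 weighs the change against the replicate spread, so this comparison adds no separate support.

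The promoters of the mitotic kinesins were read after 8 of the 11 were called lower, while the other 3 did not pass. RefSeq windows on GRCh38.p14, from 250 bases before to 50 after the gene's start, were found for 34 of the 42 kinesins, including all 11 mitotic ones, and were searched on both strands. The sequences shown run 5′ to 3′ along the gene's strand, from 100 bases before to 30 after the start. Capitals mark the CHR letters TTTGAA or their complement, CCAAT or its complement ATTGG, and the E2F letters TTTGGCGC or their complement. The first 5 belong to genes that fell, the next 3 to the mitotic kinesins that did not pass, and the last to KIF18B, a mitotic motor outside the set of 11 that also fell.
KIF20B, chr10:89701490-89701619, + strand: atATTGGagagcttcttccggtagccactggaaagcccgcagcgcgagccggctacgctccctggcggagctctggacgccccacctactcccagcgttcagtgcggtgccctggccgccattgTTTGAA
KIF15, chr3:44761694-44761823, + strand: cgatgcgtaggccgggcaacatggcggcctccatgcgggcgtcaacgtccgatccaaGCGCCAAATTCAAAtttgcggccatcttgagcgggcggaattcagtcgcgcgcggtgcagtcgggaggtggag
KIF20A, chr5:138179012-138179141, + strand: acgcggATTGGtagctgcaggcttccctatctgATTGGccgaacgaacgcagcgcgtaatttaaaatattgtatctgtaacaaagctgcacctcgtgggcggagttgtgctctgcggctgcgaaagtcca
KIF11, chr10:92593030-92593159, + strand: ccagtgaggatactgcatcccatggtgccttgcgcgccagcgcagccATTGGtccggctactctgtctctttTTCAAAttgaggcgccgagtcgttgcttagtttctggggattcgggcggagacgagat
KIF23, chr15:69414249-69414378, + strand: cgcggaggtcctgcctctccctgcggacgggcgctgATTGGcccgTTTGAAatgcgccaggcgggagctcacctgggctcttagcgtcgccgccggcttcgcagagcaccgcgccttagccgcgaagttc
KIF2C, chr1:44739737-44739866, + strand: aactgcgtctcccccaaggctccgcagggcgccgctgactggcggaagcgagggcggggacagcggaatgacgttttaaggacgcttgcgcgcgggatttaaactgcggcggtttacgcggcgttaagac
KIFC1, chr6:33391723-33391852, + strand: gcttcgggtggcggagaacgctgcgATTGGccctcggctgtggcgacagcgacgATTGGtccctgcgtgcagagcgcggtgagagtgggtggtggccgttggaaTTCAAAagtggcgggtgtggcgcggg
KIF22, chr16:29790651-29790780, + strand: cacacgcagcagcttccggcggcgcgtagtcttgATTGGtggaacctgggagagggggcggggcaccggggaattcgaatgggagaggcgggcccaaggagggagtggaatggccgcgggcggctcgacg
KIF18B, chr17:44947744-44947873, - strand: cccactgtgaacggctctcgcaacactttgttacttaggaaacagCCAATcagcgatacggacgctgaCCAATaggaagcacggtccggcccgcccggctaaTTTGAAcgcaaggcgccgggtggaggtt

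The CHR letters TTTGAA stood in 8 of the 11 mitotic kinesin windows (72.7%), and in 2 of the 16 windows of other tested kinesins (12.5%), those of KIF5B and KIF18B. The share was 12.1% over 15252 protein-coding genes of the count table and 15.4% over all 27305 symbols with a window. Of the 8 mitotic kinesins that fell, 7 held TTTGAA, and KIF20A did not. Among the 3 that did not pass, the letters were in the window of KIFC1 and were not found in those of KIF2C and KIF22. KIF11 and KIF23 show the order of a CCAAT box followed by the CHR letters, also found in KIF20B, KIF4A, KIF14 and KIF18A, and in KIFC1, which did not pass, with first bases at -53 and -28 in KIF11 and at -64 and -55 in KIF23, counted from the start. KIF20B holds 2 adjoining copies just after the start, at 25 and 31, of which the first is shown.

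CCAAT stood in 9 of the 11 mitotic windows (81.8%), in 5 of the 16 other windows (31.2%) and in 36.6% of those of the protein-coding genes. KIF15 and KIF2C were the 2 mitotic kinesins without it. Some counts rest on which window was used. KIF22 and KIF1B, counted as holding CCAAT, have it in 1 of 2 and 2 of 3 windows. KIF5C, counted as lacking it, has it in 1 of 2. The variant CHR letters TTTAAA, left in lower case, stood in 4 of the 11 mitotic windows (36.4%), those of KIF20A, KIF14, KIF23 and KIF2C, against 9.45% of protein-coding genes. An E2F word (TTTGGCGC, TTTCCCGC or TTTCGCGC) was in 1 of the 11 windows, that of KIF15, where it touches the CHR letters, against 3.80% of protein-coding genes. KIFC1, which did not pass, carries both CCAAT and TTTGAA, as KIF11 does. The part of these letters in the changes was not tested. A match of letters is a description and not a measured binding site, and no match says only that the letters are not in the window.

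**Figure D2:**
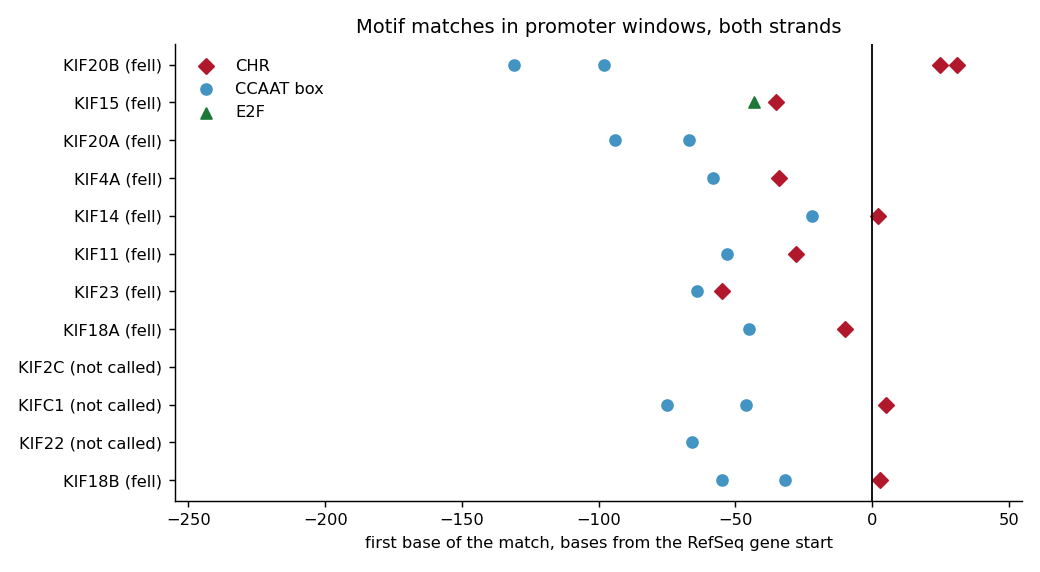
First base of each match in the promoter windows of the 11 mitotic kinesins and KIF18B, in bases from the RefSeq gene start, with CHR letters as diamonds, CCAAT as circles and E2F letters as a triangle. In 7 of the 8 mitotic kinesins that fell a CHR match lies near the start, and KIF2C has no match.

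Of the other kinesins, 8 fell. KIF5B (ENSG00000170759), the ubiquitous kinesin-1 heavy chain that carries mitochondria and vesicles outward, read 379 and 318 CPM with DMSO and 91.3 and 117 CPM with Neoribocic. The groups were far apart, and the log2 fold change was -1.74 ± 0.21 (edgeR adjusted p = 0.00102). Per kilobase KIF5B had a mean of 59.3 ± 7.36 with DMSO and 17.7 ± 3.05 with Neoribocic (SD, n = 2), a level near that of KIF20A in each group. Its kinesin-1 paralogue KIF5C was scarce, at 0.338 and 0.335 CPM with DMSO and 0.518 and 0.484 CPM with Neoribocic, and KIF5A had at most 4 counts in a library.

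KIF21A, a kinesin-4 motor that restrains microtubule growth at the cell cortex, read 31.4 and 23.8 CPM with DMSO and 7.13 and 10.6 CPM with Neoribocic (log2 fold change -1.64 ± 0.28, edgeR adjusted p = 0.00335). Its paralogue KIF21B moved the other way. KIF21B (ENSG00000116852) read 4 and 4.33 CPM with DMSO and 12.1 and 12.1 CPM with Neoribocic, a log2 fold change of 1.54 ± 0.25 (edgeR adjusted p = 0.00271). Neither gene's groups overlapped. Per kilobase, KIF21A had a mean of 4.18 ± 0.824 with DMSO and 1.34 ± 0.373 with Neoribocic, and KIF21B one of 0.421 ± 0.023 and 1.22 ± 0.00219 (SD, n = 2), so the KIF21B level came within the replicate spread of KIF21A with Neoribocic.

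KIF24, a kinesin-13 member that trims centriolar microtubules and holds back cilia, read 38.9 and 36.6 CPM with DMSO and 15.9 and 10.5 CPM with Neoribocic (log2 fold change -1.52 ± 0.26, edgeR adjusted p = 0.00346). KIF13A, a kinesin-3 motor of endosomes, read 92.4 and 67.6 CPM with DMSO and 31.9 CPM in each Neoribocic library (log2 fold change -1.33 ± 0.23, edgeR adjusted p = 0.00331). Both genes' groups were clear of each other. KIF16B, another endosomal kinesin-3 motor, read 24.3 and 21.1 CPM with DMSO and 8.45 and 11.3 CPM with Neoribocic. Its log2 fold change was -1.20 ± 0.25 (edgeR adjusted p = 0.00677), and the adjusted p was 0.0574 without Neoribocic replicate 1, the highest of a range that began at 1.88e-04 over the alternative fits.

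KIF18B, a kinesin-8 motor that trims astral microtubules in mitosis, read 114 and 137 CPM with DMSO and 74.3 and 66.9 CPM with Neoribocic. Its log2 fold change was -0.83 ± 0.20 (edgeR adjusted p = 0.0125). The adjusted p was 0.0721 without DMSO replicate 2, 0.0576 without Neoribocic replicate 1 and 0.0650 without Neoribocic replicate 2, and over all alternative fits it ran from 0.00151 to 0.0721. After a correction of the counts for transcript length and GC content the fall was larger, at -1.41 (adjusted p = 0.00323). The kinesin-8 genes tested, KIF18A and KIF18B, therefore both fell, and KIF19 had 0 counts in every library.

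KIF27, a ciliary kinesin-4 member related to KIF7, read 19.6 and 14.2 CPM with DMSO and 7.46 and 8.55 CPM with Neoribocic (log2 fold change -1.08 ± 0.26, edgeR adjusted p = 0.0128). The adjusted p was 0.0623 without DMSO replicate 1 and 0.0880 without Neoribocic replicate 1, within a range of 0.00186 to 0.122. With the length and GC correction it was 0.122, at a log2 fold change of -0.42, and 13.1% of the gene's exon bases are overlapped by antisense genes. KIF3B, a subunit of the kinesin-2 motor of intraflagellar transport, read 169 and 170 CPM with DMSO and 97.4 and 114 CPM with Neoribocic (log2 fold change -0.68 ± 0.19, edgeR adjusted p = 0.0222). Its adjusted p rose to 0.0512 with upper-quartile scaling and 0.112 with library totals only. It was 0.0650 without DMSO replicate 1, 0.0725 without DMSO replicate 2 and 0.156 without Neoribocic replicate 1. With the length and GC correction KIF3B stood at -0.20 (adjusted p = 0.259), and the lowest adjusted p over the alternative fits was 0.00721.

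KIF9 (ENSG00000088727), a kinesin-9 motor of motile cilia, was the other kinesin that rose. It read 5.16 and 4.85 CPM with DMSO and 13.1 and 11 CPM with Neoribocic, a log2 fold change of 1.26 ± 0.26 (edgeR adjusted p = 0.00621). Without Neoribocic replicate 1 the adjusted p was 0.0552, and the range over the alternative fits was 1.60e-04 to 0.0552. Of its exon bases, 17.9% are overlapped by KIF9-AS1 and KLHL18 on the opposite strand, and without strand the reads of these genes cannot be told apart.

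**Figure D3:**
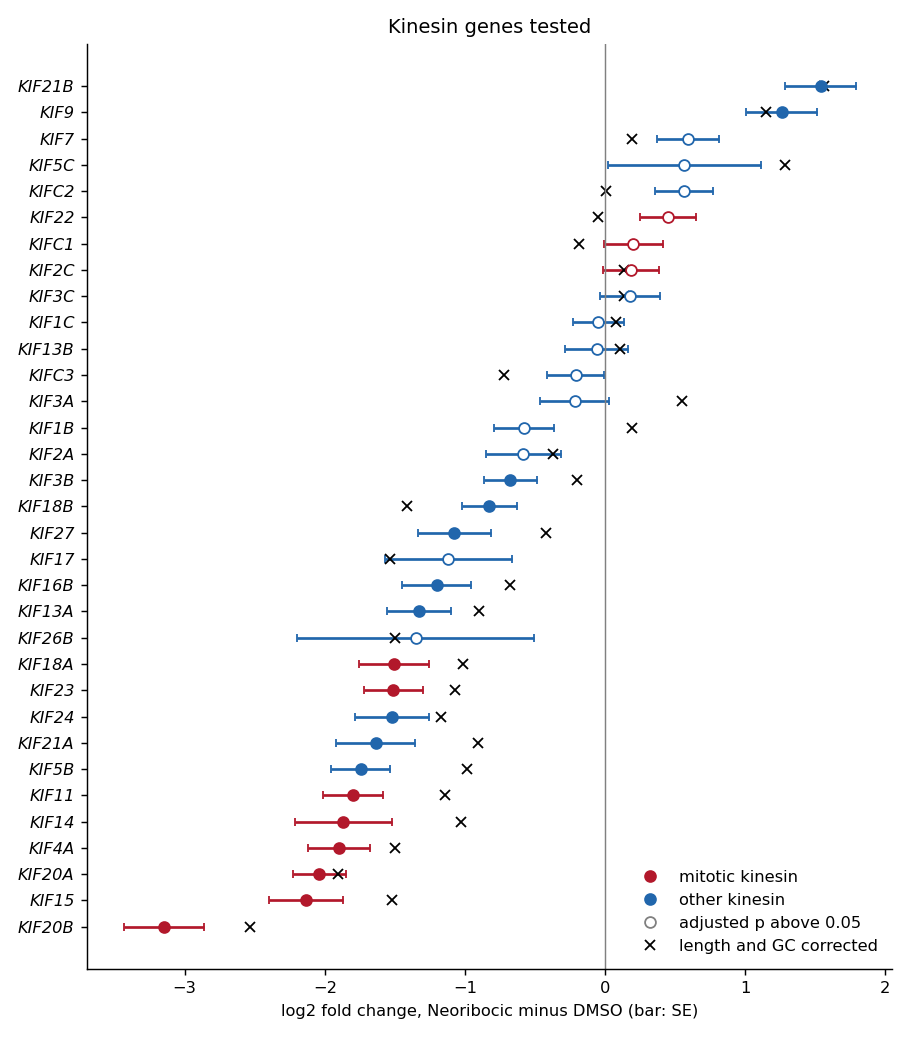
Log2 fold change (Neoribocic minus DMSO) of the 33 tested kinesins with bars of 1 SE, ordered by value. Mitotic kinesins are red and the others blue, open points did not pass the threshold, and crosses are values corrected for length and GC content. The falls run from -0.68 (KIF3B) to -3.15 (KIF20B), and KIF9 and KIF21B are the 2 that rose.

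The remaining 12 tested kinesins outside the mitotic set did not pass. Log2 fold changes were -1.35 for KIF26B, -1.12 for KIF17, -0.58 for KIF2A, -0.58 for KIF1B, -0.22 for KIF3A, -0.21 for KIFC3, -0.06 for KIF13B, -0.05 for KIF1C, 0.18 for KIF3C, 0.57 for KIFC2, 0.57 for KIF5C and 0.59 for KIF7. KIF1C, a kinesin-3 motor of dense-core vesicles and mRNA, was abundant and had nearly level libraries, at 402 and 401 CPM with DMSO and 404 and 373 CPM with Neoribocic (SE of the log2 fold change 0.18). KIF2A, a kinesin-13 depolymerase of the spindle poles, read 64.9 and 62.6 CPM with DMSO against 31.8 and 53.4 CPM with Neoribocic (edgeR adjusted p = 0.114). KIF7, a regulator of Hedgehog signalling at the ciliary tip, read 23.5 and 22.1 CPM with DMSO and 37.3 and 31.5 CPM with Neoribocic (edgeR adjusted p = 0.0611). KIF26B rested on few reads, at 0.254 and 1.71 CPM with DMSO and 0.447 and 0.316 CPM with Neoribocic.

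Another 9 kinesins were not tested. KIF4B, KIF25, KIF5A and KIF2B had at most 8 counts in a library, and KIF1A, KIF6, KIF12, KIF19 and KIF26A had 0 in all 4. A count of 0 allows a level of up to 0.0632 to 0.0915 CPM per library, from 3 counts, and this limit covers counting error only. KIF1A and KIF5A are mainly neuronal motors.

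By family, kinesin-6 fell as a whole (3 of 3 tested), as did the tested members of kinesin-8 (2 of 2). Kinesin-3 had 3 of 6 lower (KIF14, KIF13A, KIF16B), and kinesin-4 had 3 of 5 lower (KIF4A, KIF21A, KIF27) and 1 higher (KIF21B). With the length and GC correction kinesin-4 had 2 lower and 1 higher. Beside these counts, 21.3% of all genes tested were called lower and 19.1% higher in the main fit. None of the 3 kinesin-14 genes tested (KIFC1, KIFC2, KIFC3) passed in the main edgeR fit, with a median log2 fold change of 0.20. KIFC2 had an unadjusted p under 0.05 there (adjusted p = 0.0579). It was called higher by DESeq2 and by edgeR with upper-quartile scaling or library totals only, and limma-voom called 0 of the 3. With the length and GC correction the kinesin-14 median was -0.18, and KIFC3 was called lower (-0.72, edgeR adjusted p = 0.0207). Families of so few genes allow a count and no more. If KIF18B, KIF2A, KIF2B and KIF4B, which also act in mitosis, are added to the set of 11, 9 of its 13 tested members fell, with a median log2 fold change of -1.51. The 20 tested kinesins left outside then had 7 lower, 2 higher and a median of -0.40.

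CENPE and STARD9 are kinesins that their symbols leave out of the rule. CENPE, the kinesin-7 motor that carries chromosomes to the metaphase plate, read 167 and 122 CPM with DMSO and 8.45 and 11.2 CPM with Neoribocic. Its log2 fold change of -3.87 ± 0.27 (edgeR adjusted p = 4.80e-04) was below that of every kinesin matched by the rule, and it was -3.03 after the length and GC correction. STARD9, a very long kinesin of the pericentriolar material, had a log2 fold change of -0.40 ± 0.23 that did not pass (edgeR adjusted p = 0.181), and 0.19 after the correction.

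Transcript length moved with the change among the mitotic kinesins, and GC content among the kinesins as a whole. Across the 33 tested kinesins, Spearman's rho of the log2 fold change was -0.10 with length and 0.61 with GC content. Across the 11 mitotic kinesins, it was -0.74 with transcript length and 0.60 with GC content, and the 2 properties were themselves related (rho = -0.84). These are descriptions over genes, which share the same 4 libraries. The 8 mitotic kinesins that fell had a median length of 4595 bases and 39.8% GC, while KIF2C, KIFC1 and KIF22 had the 3 shortest transcripts (2879, 2706 and 2113 bases) and the 3 highest GC contents (50.1%, 57.9% and 58.2%). Across the 22 other kinesins tested, rho was -0.01 with length and 0.38 with GC content.

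The correction removed a smooth surface of length and GC content, fitted over all genes in each library. It moved the mitotic median from -1.80 to -1.07 and the median of the other kinesins from -0.58 to -0.28, while that of all genes was -0.01. Across the mitotic kinesins rho was still -0.61 with length and 0.51 with GC content after it. The same 8 mitotic kinesins were called lower, with corrected values from -1.01 (KIF18A) to -2.54 (KIF20B). KIF14 moved from -1.87 to -1.03, KIF11 from -1.80 to -1.14 and KIF5B from -1.74 to -0.99. KIF20A, with a length of 3201 bases and 48.4% GC, moved little, from -2.04 to -1.90. The 3 mitotic kinesins that did not pass stood at 0.14 (KIF2C), -0.18 (KIFC1) and -0.05 (KIF22). Over all kinesins, 16 were then lower and 3 higher, and 16 of the 18 calls were shared. Of all 13862 genes in that fit, 2686 were lower and 2290 higher. KIF27 and KIF3B left the calls, KIF17 and KIFC3 joined those lower, and KIF3A joined those higher. The part of length and GC content in the uncorrected changes was not tested beyond this correction.

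**Figure D4:**
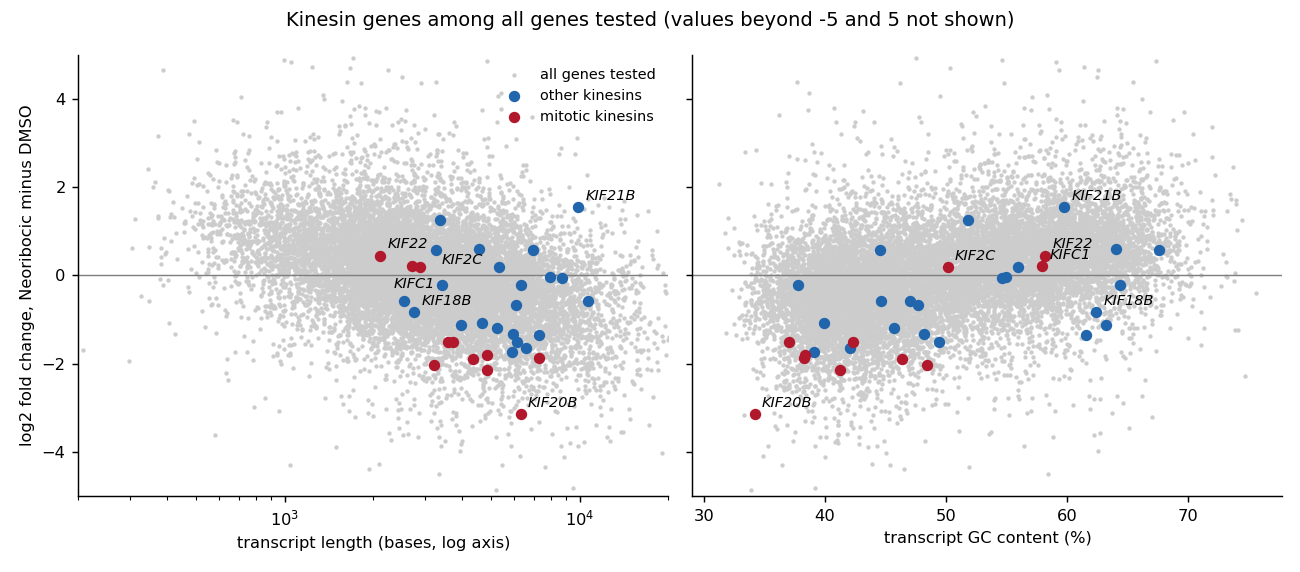
Log2 fold change against transcript length (bases, log axis) and GC content (percent) for all genes tested (grey), with the mitotic kinesins in red and the other kinesins in blue. Genes beyond the ends of the vertical axis are not shown. The mitotic kinesins run from KIF22 (2113 bases, 58.2% GC, 0.45) to KIF20B (6306 bases, 34.2% GC, -3.15).

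Genes for proteins that work with the mitotic kinesins fell beside them. Of 20 such genes, all tested, 14 fell, with a median log2 fold change of -1.20 (-0.95 after the length and GC correction). Over all genes tested, 21.3% were called lower and 19.1% higher. In edgeR 0 of the 20 rose, also at an unadjusted p under 0.05, and 0 rose with DESeq2 or limma-voom. ANLN (anillin), a scaffold of the cleavage furrow, read 552 and 507 CPM with DMSO and 50.5 and 62.4 CPM with Neoribocic, and fell by 3.23 ± 0.21 on the log2 scale (edgeR adjusted p = 4.80e-04). CKAP5, a microtubule polymerase of the spindle, read 421 and 353 CPM with DMSO and 60.4 and 65.9 CPM with Neoribocic, and fell by 2.62 ± 0.20 (edgeR adjusted p = 4.94e-04). PRC1, the midzone crosslinker that binds KIF4A, had a log2 fold change of -1.48 ± 0.19 (edgeR adjusted p = 0.00113), although 57.6% of its exon bases are shared on the same strand with a readthrough gene.

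Direct partners of single motors, chosen after their values were seen, also fell. RACGAP1, which joins KIF23 in centralspindlin, had a log2 fold change of -1.21 ± 0.20 (edgeR adjusted p = 0.00264). TPX2, which regulates KIF11 and KIF15 on the spindle, stood at -1.49 ± 0.19 (edgeR adjusted p = 0.00123), and CIT, the citron kinase that KIF14 acts with, at -1.30 ± 0.18 (edgeR adjusted p = 0.00157). The 6 partners that did not pass were AURKB (0.18), CDCA8 (0.27), BIRC5 (-0.36), PLK1 (-0.31), NUMA1 (-0.23) and PSRC1 (-0.26), as log2 fold changes. After the length and GC correction AURKB (-0.49, adjusted p = 0.0391), PLK1 (-0.74, adjusted p = 0.0140) and PSRC1 (-0.80, adjusted p = 0.0315) were called lower, and HAUS6 and MAPRE1 left the calls. Then 15 of the 20 were lower, against 2686 of all 13862 genes in that fit. AURKB, CDCA8, BIRC5 and INCENP encode the chromosomal passenger complex, which KIF20A carries. Of these, INCENP fell, with a log2 fold change of -0.58 ± 0.19 (edgeR adjusted p = 0.0383) and -0.97 after the correction (adjusted p = 0.00481).

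Genes that serve transport kinesins were called in both directions, at shares near those of all genes tested (21.3% lower and 19.1% higher). Of 19 tested light chains and cargo adaptors, 4 fell and 5 rose, with a median log2 fold change of 0.04. MAP7D3, which recruits kinesin-1 to microtubules, was at -2.11 ± 0.22 (edgeR adjusted p = 7.01e-04). TRAK2, which links kinesin-1 to mitochondria, was at -1.60 ± 0.20 (edgeR adjusted p = 0.00117), and the scaffold SPAG9 at -0.99 ± 0.20 (edgeR adjusted p = 0.00621, and 0.0600 without Neoribocic replicate 1, the highest of the alternative fits). Those that rose included the kinesin light chain KLC4, at 1.37 ± 0.24 (edgeR adjusted p = 0.00379) and the scaffold MAPK8IP3, at 1.03 ± 0.19 (edgeR adjusted p = 0.00479). KLC4 had a mean of 14.4 CPM with DMSO and 37.1 CPM with Neoribocic. The more abundant light chains KLC1, at 210 and 255 CPM, and KLC2, at 130 and 150 CPM, did not pass (log2 fold changes 0.28 and 0.21, edgeR adjusted p = 0.234 and 0.400). Other genes overlap 30.3% of the KLC1 exon bases on the opposite strand and 10.3% on the same strand. For KLC4 the opposite-strand share is 12.8%.

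Dynein, the minus-end motor, and its cofactor dynactin had 5 of 23 tested genes lower and 4 higher, with a median of 0.02. These shares were also near the 21.3% and 19.1% of all genes tested. The heavy chain DYNC1H1 had a log2 fold change of -1.46 ± 0.22 (edgeR adjusted p = 0.00216), and the intermediate chain DYNC1I2 of -1.20 ± 0.25 (edgeR adjusted p = 0.00641). DYNLT1, a light chain, was at 1.06 ± 0.24 (edgeR adjusted p = 0.00945, and 0.0747 without Neoribocic replicate 1, the highest of the alternative fits). DCTN4 was at -1.62 ± 0.43, DCTN3 at 0.92 ± 0.24 and DCTN2 at 0.77 ± 0.20 (edgeR adjusted p = 0.0305, 0.0168 and 0.0174). Each of these 3 lost its call when DMSO replicate 2 or Neoribocic replicate 1 was left out, and with the length and GC correction. DCTN4 stood at -0.84, -1.44 and -1.14 in these fits (adjusted p = 0.0601, 0.178 and 0.130), and at -1.82 without Neoribocic replicate 2 (adjusted p = 0.0854). DCTN3 stood at 0.93, 0.62 and 0.0728 (adjusted p = 0.0685, 0.127 and 0.723), and DCTN2 at 0.83, 0.64 and 0.30 (adjusted p = 0.0533, 0.114 and 0.125). When DMSO replicate 1 was left out, DCTN3 and DCTN2 stood at 0.93 and 0.71 (adjusted p = 0.0651 and 0.0753).

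**Figure D5:**
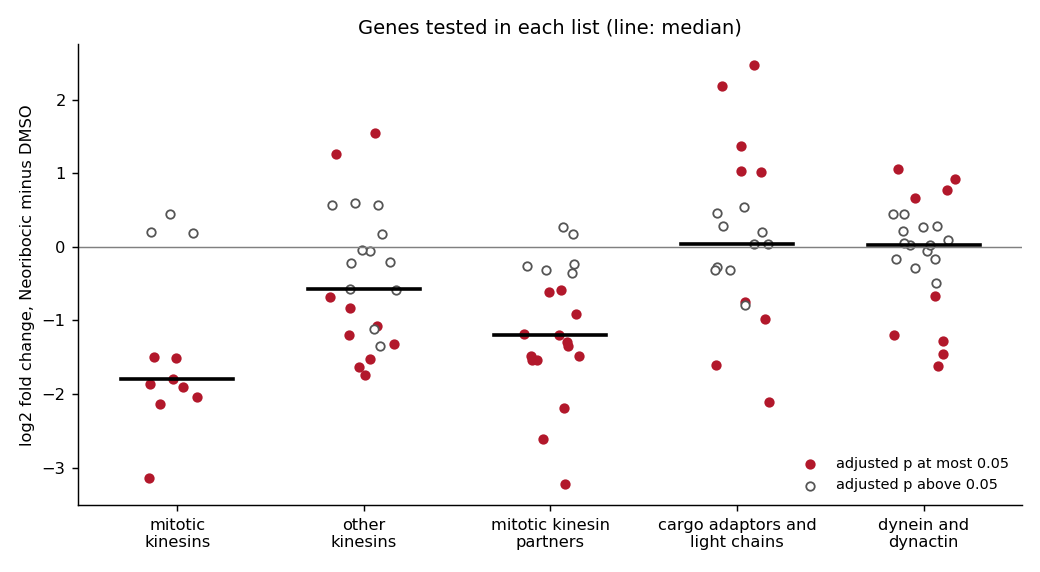
Log2 fold change (Neoribocic minus DMSO) of each tested gene in the mitotic kinesins, the other kinesins, the mitotic partners, the adaptors and light chains, and dynein with dynactin, with the median of each list as a line and the genes past the threshold as filled points. The medians are -1.80, -0.58, -1.20, 0.04 and 0.02.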

How the data were processed

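Whole-number counts per Ensembl gene were used as deposited by the authors, without normalization. Of the aligner, the counter and the strand setting, nothing is given in the sources used here. GRCm38 and mm10, the builds in the submitters' processing notes, are mouse builds, although the IDs are human. Genes were named through the gene table (20148 of 20263 IDs matched). Small counts were mostly even (62.3% to 65.4% of those below 20), so intervals from counting alone could be too narrow. No column was left unmapped.

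Tests used edgeR 4.0.16 in R 4.3.3, with filterByExpr, TMM scaling, the robust quasi-likelihood fit, Benjamini-Hochberg adjustment over all genes tested and a threshold of 0.05. The script was tested on simulated data. Length and GC content came from 1 GENCODE release 29 transcript per gene, and their smooth surface was fitted with mgcv 1.9-3 on log2 CPM (prior count 3). Exon overlap used the same annotation. Alternatives were other scalings, filters and thresholds, DESeq2 1.42.0, limma-voom (limma 3.58.1), a replicate block, each library left out, halved counts and a wider mitotic list.

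The kinesins and gene lists were chosen with earlier results of these data known. The text names every kinesin and, from each partner list, up to 3 genes per direction with the smallest p among those past the threshold; 1 gene named by this rule is not reported here. Other partner, light chain and marker genes in the text, such as RACGAP1, TPX2 and CIT, were chosen after their values were seen.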

Additional observations from a re-analysis of the deposited data

How the results depend on the processing

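Of the 18 kinesin calls, 13 held under all 15 alternative fits. Over the 33 kinesins and these fits, 451 comparisons kept direction and side of the threshold, 14 lost the call, 12 gained one and 15 changed sign. The number called lower was 13 at a threshold of 0.01, and the number of all genes lower at that threshold is not given here. The number called higher was 5 with upper-quartile scaling, where 3329 of all 13879 genes were called higher, and 4 with DESeq2, where 2869 were. In the main fit 2650 of all genes were called higher. With 1 library left out, fewer genes were called in the whole table, and in some of these fits fewer kinesins. The mitotic median was -1.07 with the length and GC correction, -1.51 with the wider list and -1.93 to -1.49 with 1 library left out. The median of the other kinesins was -0.45 with upper-quartile scaling, -0.41 with library totals only (which moved the median of all genes to 0.18), -0.28 with the correction, -0.40 with the wider list and -0.71 to -0.42 with 1 library left out. The numbers did not pair the libraries (r = -0.08 between the deviations of same-numbered libraries over 12912 genes), and with the replicate block 16 kinesins were lower and 2 higher, with medians of -1.81 and -0.60. Of all 13879 genes, 2917 were lower and 2677 higher with that block.

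Among the kinesins, sign changes were seen only in genes that did not pass in the main fit. A comparison that changed sign was counted as a sign change alone. KIF3A with the length and GC correction was such a case, and it was called higher there (0.55, edgeR adjusted p = 0.0476). KIF13B was 0.0689 with upper-quartile scaling, 0.0981 with library totals, 0.11 with the correction and -0.23 to 0.16 with 1 library left out. KIF1C was 0.0742, 0.12, 0.0780 and -0.0972 to 0.0106 in the same order. With the correction, KIFC1 was -0.18, KIF3A 0.55, KIF22 -0.0504, KIF1B 0.19 and STARD9 0.19. With 1 library left out, KIFC1 ran from -0.0165 to 0.40, KIF3A from -0.48 to 0.0185 and KIF26B from -2.16 to 0.59. The cause was not tested. With 2 libraries per group, precision rests on the spread shared across genes, and small differences could be missed.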
